A study of Mus musculus with 24 samples.

Results

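The 10 genes described here encode parts of the machinery that licenses and starts DNA replication, together with the D cyclins that act before it in G1. They were chosen by symbol: Mcm2, Mcm3, Mcm4, Mcm5, Mcm6, Mcm7, Cdc45, Pcna, Ccnd1 and Ccnd2, out of 14769 genes in 4 deposited tables. That choice was made with earlier results of these data known. All 10 are listed in 3 of the tables, and 8 in the table of CL KO with CL WT, where Mcm3 and Cdc45 are not listed. The study sequenced total RNA of mouse cortex after transient middle cerebral artery occlusion (tMCAo), a stroke model in which a filament blocks an artery and is then withdrawn. All animals were males of 3 to 4 months that had 1 h of occlusion and 1 day of reperfusion. Each genotype, WT and KO, gave 6 CL libraries and 6 PI libraries. The KO animals lack ciRS-7 (Cdr1as), a circular RNA with many binding sites for miR-7. The labels give 1 strain for WT and KO alike, C57BL/6N-Cdr1asem1Nikr, and take 1 CL and 1 PI library from each of 6 WT and 6 KO animals. They do not spell out CL and PI, which are used here as given. No animal without surgery was analysed here.

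Mcm2 to Mcm7 form a ring that is loaded onto replication origins in G1 and later becomes the core of the replicative helicase. Cdc45 joins that ring when an origin fires, and Pcna is the clamp that holds DNA polymerases on the template and also serves DNA repair. Cyclins D1 and D2, the products of Ccnd1 and Ccnd2, activate the kinases Cdk4 and Cdk6, which phosphorylate the retinoblastoma protein and free E2F factors, and the Mcm genes are textbook E2F targets. Most neurons of the adult cortex have left the cell cycle, while glia, microglia and vascular cells can divide after injury.

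RefSeq promoters, taken on GRCm38.p6 from 250 bases before to 50 bases after a start site, were found for 7 of the 10 genes, with 2 for Mcm7. Mcm4, Ccnd1 and Ccnd2 had no entry. Any of 3 E2F motif versions (TTTCGCGC, TTTGGCGC or TTTCCCGC, either strand, overlaps allowed) occurred in 4 of these 8 promoters, those of Mcm3, Mcm5, Mcm6 and 1 of the 2 of Mcm7, and in 1.84% of 32851 promoters. The NF-Y motif CCAAT occurred in 8 of 8 member promoters and 37.4% of all, and the GC box GGGCGG in 7 of 8 and 35.7%. The CHR motif TTTGAA occurred in 2 of 8 and 17.9%, the CRE motif TGACGTCA in 1 of 8 and 1.79%, and the AP-1 motif TGACTCA in 0 of 8 and 5.2%. The promoters of 3 genes are shown because their calls differ in the results that follow. Mcm3 and Mcm6 were higher in PI than in CL cortex of KO animals, and Mcm5 did not pass the test. A difference between these genes was not tested. Mcm7, with E2F motifs in 1 of its 2 promoters, did not pass the test either. E2F motifs are in capitals, and each sequence is read 5′ to 3′ on the strand of its gene, minus for Mcm3 and Mcm6 and plus for Mcm5.
Mcm3 promoter, chr1:20820263-20820562: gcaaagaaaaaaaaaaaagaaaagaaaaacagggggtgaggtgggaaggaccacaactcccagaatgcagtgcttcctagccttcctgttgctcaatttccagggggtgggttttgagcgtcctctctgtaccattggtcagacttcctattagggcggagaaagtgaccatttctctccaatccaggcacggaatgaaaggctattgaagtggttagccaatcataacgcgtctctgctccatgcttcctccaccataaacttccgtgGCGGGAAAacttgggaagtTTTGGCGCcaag
Mcm6 promoter, chr1:128359656-128359955: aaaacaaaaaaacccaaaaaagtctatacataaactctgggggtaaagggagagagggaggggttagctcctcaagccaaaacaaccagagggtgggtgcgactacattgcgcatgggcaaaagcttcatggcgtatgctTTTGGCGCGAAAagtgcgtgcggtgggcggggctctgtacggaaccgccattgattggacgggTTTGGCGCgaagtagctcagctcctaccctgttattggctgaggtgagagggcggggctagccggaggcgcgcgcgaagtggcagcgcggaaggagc
Mcm5 promoter, chr8:75109259-75109558: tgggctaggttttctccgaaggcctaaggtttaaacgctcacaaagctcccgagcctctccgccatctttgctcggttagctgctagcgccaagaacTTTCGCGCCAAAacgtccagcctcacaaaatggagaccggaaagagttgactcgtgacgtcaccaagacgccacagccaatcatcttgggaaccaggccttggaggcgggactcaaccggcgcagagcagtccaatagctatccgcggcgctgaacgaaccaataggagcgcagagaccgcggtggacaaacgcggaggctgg
The Mcm6 promoter holds the motif at 3 places, 2 of them overlapping, the Mcm3 promoter at 2 places, and the Mcm5 promoter at 2 that overlap. A match describes these letters and not binding of a factor.

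The values are log2 CPM, read counts scaled to library size on a log2 scale, and the authors' files had drawn the extreme values of each group in to its quartiles, so the lowest and highest values below are quartiles and less far apart than the libraries were. Effective depth, read from the steps of low values, was 3.74 to 10.5 M reads (megareads) per library (median 6.92), and 3 reads correspond to 0.286 to 0.802 CPM. CL KO replicate 6 was the shallowest. The deleted transcript Cdr1as was at most −2.59 log2 CPM in KO libraries and at least 11.3 in WT libraries, in the 3 tables that list it. All 10 neuron markers chosen to check the tissue label were listed, with summed levels of 7310 to 9210 CPM per library in the tables of PI with CL. In bulk RNA, fewer cells of a type and less RNA per cell cannot be told apart.

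The members span a wide range of abundance. Per kilobase of annotated exon in CL WT, Pcna had a median of 10.8 CPM, Ccnd2 7.30, Ccnd1 3.84 and Mcm4 3.32. Mcm7 followed at 1.59, Mcm6 at 1.28 and Mcm5 at 0.657 CPM per kilobase. Mcm3 at 0.377 (range 0.329 to 0.430), Mcm2 at 0.355 (0.287 to 0.362) and Cdc45 at 0.302 (0.245 to 0.434) were lowest, and the ranges of these 3 neighbours overlapped. The Mcm subunits thus differed in level although they join in 1 ring, with Mcm4 above the other 5. In reads, the median CL WT library held 485 reads of Ccnd2 and 183 of Pcna but 9.99 of Mcm3 and 7.90 of Cdc45, so the last 2 carry the largest counting error.

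In WT animals the clearest difference between PI and CL was in cyclin D1. Ccnd1 was at 4.16, 4.18 and 4.19 log2 CPM (lowest, median, highest) in CL WT and at 4.69, 4.72 and 5.04 in PI WT. All 6 deposited PI values lay above all 6 deposited CL values, as in 16.5% of genes. The deposited CL values were closer together than the PI values, both being drawn in to quartiles. Ccnd1 rose 1.56-fold (log2 fold change 0.64, SE 0.12, adjusted p = 0.00461). It was the 1 member of 10 that passed the test, where 10.6% of 14489 genes did (5.2% higher). Cyclin D2 went the other way without passing. Ccnd2 was at 6.09, 6.10 and 6.12 in CL WT and at 5.88, 5.97 and 5.97 in PI WT. The groups did not overlap, PI lying lower, but the log2 fold change of −0.16 (SE 0.06) had an adjusted p of 0.0996. With each library centred on its median gene, it was −0.20 and passed (adjusted p = 0.0328).

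Among the Mcm genes in WT, Mcm2, Mcm3 and Mcm4 had PI values that lay wholly above CL without passing the test. Mcm2 was at 1.00, 1.30 and 1.33 log2 CPM in CL WT and at 1.39, 2.04 and 2.20 in PI WT (log2 fold change 0.67, SE 0.29, adjusted p = 0.187). Mcm3 was at 0.31, 0.49 and 0.69 in CL WT and at 0.99, 1.33 and 1.70 in PI WT (0.84, SE 0.30, adjusted p = 0.0978). Mcm4 was at 3.49, 3.57 and 3.66 in CL WT and at 3.85, 3.86 and 3.88 in PI WT (0.29, SE 0.09, adjusted p = 0.0726). For comparison, 32.8% of all genes had groups that did not overlap (16.5% with PI higher). Without replicate 4, Mcm2 passed (0.79, adjusted p = 0.0396).

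The other subunits moved less in WT. Mcm6 was at 2.38, 2.58 and 2.62 in CL WT and 2.57, 2.69 and 2.89 in PI WT (0.19, SE 0.16, 95% interval −0.16 to 0.53). Mcm7 was at 2.76, 2.81 and 2.93 in CL WT and 2.80, 3.04 and 3.09 in PI WT (0.14, SE 0.14, interval −0.16 to 0.44). Both pairs of groups overlapped. Mcm5 was spread widely in PI WT, from 0.28 through 1.11 to 1.80, around a CL WT range of 1.21 to 1.46. Its log2 fold change was −0.29 (SE 0.42, interval −1.21 to 0.63). Without replicate 4 the sign of Mcm5 turned, to 0.02.

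Cdc45, which completes the helicase, was at −0.22, 0.06 and 0.61 in CL WT and 0.12, 0.64 and 0.83 in PI WT (0.38, SE 0.41, adjusted p = 0.639). Pcna was at 4.60, 4.70 and 4.86 in CL WT and 4.84, 4.86 and 4.90 in PI WT (0.15, SE 0.09, adjusted p = 0.377). Both overlapped between the groups. Over the 10 members in WT, 8 fold changes were above 0 (52.3% of all genes), with a median of 0.24 beside 0.01 over all genes. At an unadjusted p under 0.05 there were 5 members, 4 higher and 1 lower, where 23.9% of all genes were past that level.

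**Figure D1:**
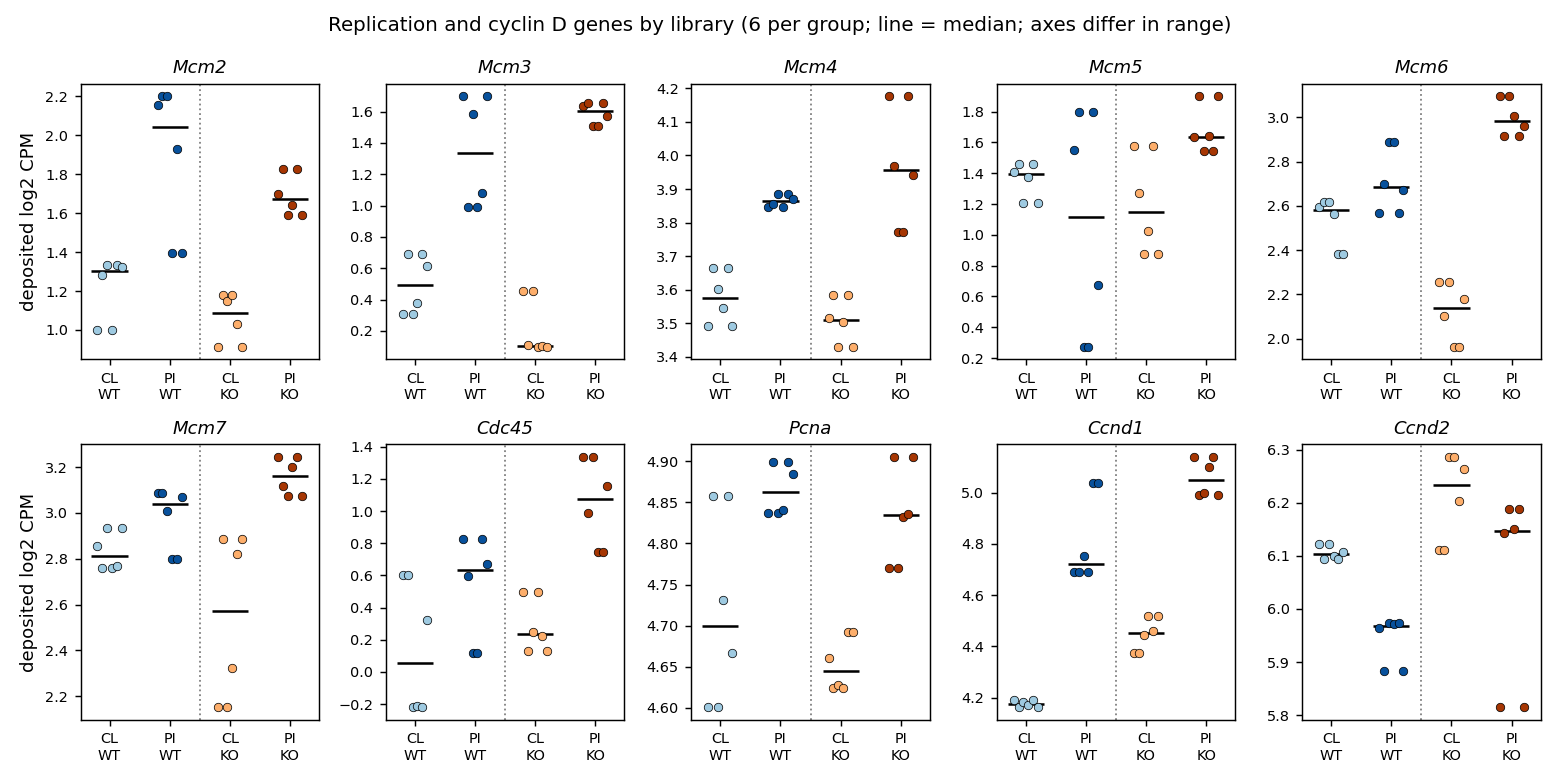
Deposited log2 CPM of the 10 members in each of the 6 libraries of the WT groups and the KO groups (points), with the group median (line), from the tables of PI with CL. The dotted line separates the 2 tables, which were scaled separately. Ccnd1 stands higher in PI in both genotypes, and Mcm3 and Mcm6 stand clear of CL in KO.

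In KO animals more members passed the test than in WT, though no member passed in the direct comparison of genotypes below. Mcm3, Mcm6 and Ccnd1 rose, 3 of 10 members where 10% of 14338 genes passed (5.11% higher), and none fell. Ccnd1 was at 4.37, 4.45 and 4.52 log2 CPM in CL KO and at 4.99, 5.05 and 5.14 in PI KO. The groups were far apart, and the rise was 1.53-fold (log2 fold change 0.61, SE 0.09, adjusted p = 0.00091). Ccnd2, the other D cyclin, was at 6.11, 6.23 and 6.29 in CL KO and 5.82, 6.15 and 6.19 in PI KO (−0.16, SE 0.13, adjusted p = 0.488), with overlapping groups.

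Mcm6 was at 1.97, 2.14 and 2.26 in CL KO and at 2.91, 2.98 and 3.10 in PI KO. No deposited value of one group reached the other, and the rise was 1.84-fold (log2 fold change 0.88, SE 0.16, adjusted p = 0.00413). Mcm6 kept an adjusted p under 0.05 with any 1 animal left out. Mcm3 was at 0.10, 0.11 and 0.45 in CL KO and at 1.51, 1.60 and 1.66 in PI KO. That is a 2.58-fold rise (1.37, SE 0.27, adjusted p = 0.00692), the largest among the members, on a median of 8.49 reads per library in CL KO and 19.5 in PI KO. The call for Mcm3 did not hold without replicate 2 (1.31, adjusted p = 0.051) or replicate 5 (1.30, adjusted p = 0.0556).

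Mcm2, Mcm4 and Mcm7 had PI KO values wholly above CL KO and missed the threshold. Mcm2 was at 0.91, 1.09 and 1.18 in CL KO and 1.59, 1.67 and 1.83 in PI KO (0.63, SE 0.22, adjusted p = 0.0895). Mcm4 was at 3.43, 3.51 and 3.58 in CL KO and 3.77, 3.96 and 4.18 in PI KO (0.46, SE 0.14, adjusted p = 0.0625). Mcm7 was at 2.15, 2.57 and 2.89 in CL KO, its widest group, and 3.07, 3.16 and 3.24 in PI KO (0.62, SE 0.22, adjusted p = 0.0891). With the replicate block, which pairs libraries by animal, Mcm4 (adjusted p = 0.0146) and Mcm7 (adjusted p = 0.0189) passed as well. That made 5 of 10, where 15% of all genes passed with the block. Mcm4 also passed without replicate 4 (0.54, adjusted p = 0.0475).

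Mcm5, at 0.88, 1.15 and 1.58 in CL KO and 1.54, 1.64 and 1.90 in PI KO, was the 1 subunit whose groups overlapped (0.49, SE 0.28, adjusted p = 0.307). Cdc45 was at 0.13, 0.24 and 0.49 in CL KO and 0.75, 1.07 and 1.34 in PI KO (0.77, SE 0.32, adjusted p = 0.158). Pcna was at 4.62, 4.64 and 4.69 in CL KO and 4.77, 4.83 and 4.91 in PI KO (0.18, SE 0.08, adjusted p = 0.180). The groups of Cdc45 and Pcna did not overlap, PI lying higher in each. In all, 8 of the 10 members had deposited values wholly higher in PI KO. The same held for 17.1% of genes, and 34.3% did not overlap in either direction. At an unadjusted p under 0.05 there were 8 members, all higher, where 24.9% of genes were past that level. The fold change was above 0 in 9 of 10 members (49.9% of all genes), and the median log2 fold change was 0.62 beside −0.00 over all genes. Leaving out the shallowest library with its animal (KO replicate 6) left 3 members called, where 10.2% of genes were. Mcm3 was then at 1.33, Mcm6 at 0.91 and Ccnd1 at 0.67.

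**Figure D2:**
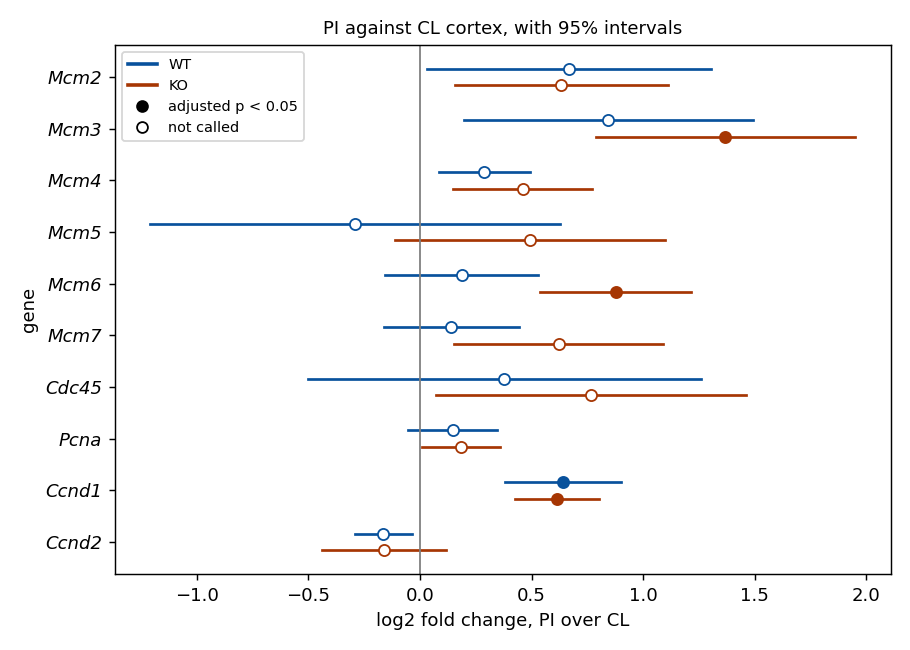
Log2 fold change of PI over CL (x axis) for each member (y axis) in WT and KO, with 95% intervals and filled points where the adjusted p is under 0.05. Ccnd1 is filled in both genotypes at 0.64 and 0.61, and Mcm3 (1.37) and Mcm6 (0.88) are filled in KO.

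The fold changes in WT and KO were compared directly, as the KO change minus the WT change, over 14211 genes. No member passed, and no gene did (0%); by the same trimmed-mean test moderated with limma, 4.55% of genes had an unadjusted p under 0.05, and 2 members were called by limma on the deposited values. The difference was 0.69 for Mcm6 (SE 0.22, 95% interval 0.23 to 1.15, adjusted p = 0.992), which ranked 53 of 14211 by p. It was 0.78 for Mcm5 (SE 0.54), 0.52 for Mcm3 (SE 0.38) and 0.48 for Mcm7 (SE 0.27), with intervals that include 0. For Ccnd1 it was −0.03 (interval −0.35 to 0.29), for Ccnd2 0.00 (−0.31 to 0.32), for Mcm2 −0.03 (−0.80 to 0.74) and for Pcna 0.04 (−0.22 to 0.29). Mcm4, at 0.17 (−0.19 to 0.54), and Cdc45, at 0.39 (−0.67 to 1.44), complete the set. A call in KO and not in WT is therefore not shown to be a difference between the genotypes for Mcm3 or Mcm6.

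Within PI cortex, KO and WT did not differ past the threshold in any member, and 3 of 14452 genes (0.0208%) passed. Mcm6 was at 2.60, 2.71 and 2.91 log2 CPM in PI WT and at 2.95, 3.02 and 3.13 in PI KO. The 2 groups did not overlap, as in 14.1% of genes, but the log2 fold change of 0.29 (SE 0.15) had an adjusted p of 0.854. Ccnd1 was at 4.71, 4.75 and 5.07 in PI WT and 5.03, 5.09 and 5.17 in PI KO, which overlap (0.25, SE 0.13, adjusted p = 0.854). The others ranged from −0.18 for Mcm2 (interval −0.79 to 0.43) to 0.63 for Mcm5 (−0.30 to 1.57). Between them lay Cdc45 at 0.53, Mcm3 at 0.25, Mcm7 at 0.19, Ccnd2 at 0.12, Mcm4 at 0.11 and Pcna at −0.02. No member had an unadjusted p under 0.05, where 5.75% of genes did, and 8 of 10 members were above 0 (48.5% of all genes), with a median of 0.22 beside −0.00 over all genes.

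Within CL cortex none of the 8 listed members passed either, and 4 of 14323 genes (0.0279%) did. Mcm6 was lower in CL KO, at 1.94, 2.11 and 2.23, than in CL WT, at 2.35, 2.54 and 2.58, with no overlap (−0.40, SE 0.16, adjusted p = 0.825). Ccnd1 was higher in CL KO, at 4.35, 4.42 and 4.49, than in CL WT, at 4.13, 4.14 and 4.16, also with no overlap (0.28, SE 0.08, adjusted p = 0.638). These were the 2 members with an unadjusted p under 0.05, where 5.73% of genes were past that level and 13.5% had groups that did not overlap. Without CL KO replicate 6 the values were −0.42 for Mcm6 and 0.25 for Ccnd1. Mcm7 at −0.29 (SE 0.22), Mcm5 and Mcm2 at −0.15 each, Mcm4 and Pcna at −0.06 each and Ccnd2 at 0.11 overlapped between the genotypes. Of the 8 members, 2 were above 0 (49.2% of all genes), with a median of −0.10 beside −0.00. Mcm6 thus lay lower in KO than in WT on the CL side and higher on the PI side, while Ccnd1 lay higher in KO on both, and none of these values passed.

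**Figure D3:**
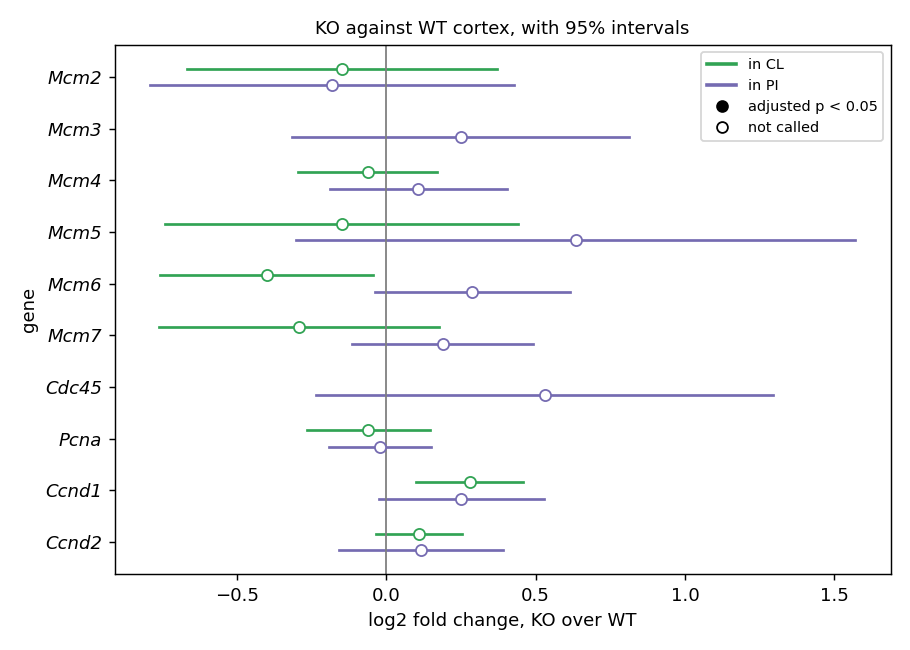
Log2 fold change of KO over WT (x axis) for each member (y axis) within CL and within PI cortex, with 95% intervals. No point is filled, since no adjusted p is under 0.05, and Mcm3 and Cdc45 have no CL value. Mcm6 lies at −0.40 in CL and 0.29 in PI.

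The rest of the replication and cell-cycle machinery was described from 6 lists. Of 12 genes of origin recognition and Mcm loading, 9 were listed and 0 passed in either genotype (median log2 fold change 0.06 in WT and 0.10 in KO). Orc1, Cdc6 and Cdt1, which mark the origin and load the ring, were not listed in the tables of PI with CL. Of 13 helicase activation genes, 8 were listed and 0 passed, with medians of 0.04 in WT and 0.07 in KO. With 10.6% of all genes called in WT and 10% in KO, lists of this size can hold no call at the background share, and they were not tested against the members.

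Among 24 listed of 30 genes of the replication fork and nucleotide supply, 1 passed in each genotype. This was Rpa1, which coats single-stranded DNA in replication and repair. Rpa1 was at a median of 4.93 in CL WT and 5.17 in PI WT (0.25, adjusted p = 0.0316), and at 4.83 in CL KO and 5.07 in PI KO (0.27, adjusted p = 0.0468). The list medians were 0.05 in WT and 0.09 in KO.

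Of 22 genes of G1/S control, 19 were listed, with 2 higher in WT, and 1 higher and 1 lower in KO. Myc, a growth-promoting transcription factor, rose in both genotypes, by 0.98 in WT (SE 0.29, adjusted p = 0.0482) and 1.30 in KO (SE 0.33, adjusted p = 0.0254). Cdc25a, a phosphatase that activates cyclin-dependent kinases, rose in WT (0.76, SE 0.17, adjusted p = 0.0144), and in KO it was at 0.39 (adjusted p = 0.253). Rbl2, a relative of the retinoblastoma protein found in resting cells, fell in KO (−0.26, SE 0.07, adjusted p = 0.0391), and in WT it was at −0.13 (adjusted p = 0.490). The interaction did not pass for Cdc25a (−0.37, SE 0.27) or Rbl2 (−0.13, SE 0.13). Cdk4, the partner of the D cyclins, was at 0.32 in WT (adjusted p = 0.0662) and 0.08 in KO (adjusted p = 0.756). The G1/S medians were 0.09 in WT and 0.05 in KO.

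Of 8 genes for inhibitors of cyclin-dependent kinases, 5 were listed and Cdkn1a passed in both genotypes. Cdkn1a encodes p21, which blocks cyclin-dependent kinases and binds Pcna. It was at 3.91, 3.95 and 4.01 log2 CPM in CL WT and at 4.58, 4.84 and 4.89 in PI WT (0.81, SE 0.12, adjusted p = 0.000893). In KO it was at 3.39, 3.65 and 3.82 in CL and at 4.60, 4.83 and 4.97 in PI (1.18, SE 0.16, adjusted p = 0.000732). Its groups did not overlap in either genotype, so the inhibitor rose together with Ccnd1.

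Of 26 genes of G2 and mitosis, 10 were listed in the tables of PI with CL and 0 passed in either genotype. Among the 16 not listed were Top2a, Cdk1, Ccnb1, Ccnb2, Plk1, Aurka, Aurkb, Birc5 and Foxm1. Mki67, the Ki-67 proliferation marker, had a log2 fold change of 0.62 in WT (SE 0.28, adjusted p = 0.200) and 0.52 in KO (SE 0.37, adjusted p = 0.431). The list medians were 0.10 in WT and 0.19 in KO.

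**Figure D4:**
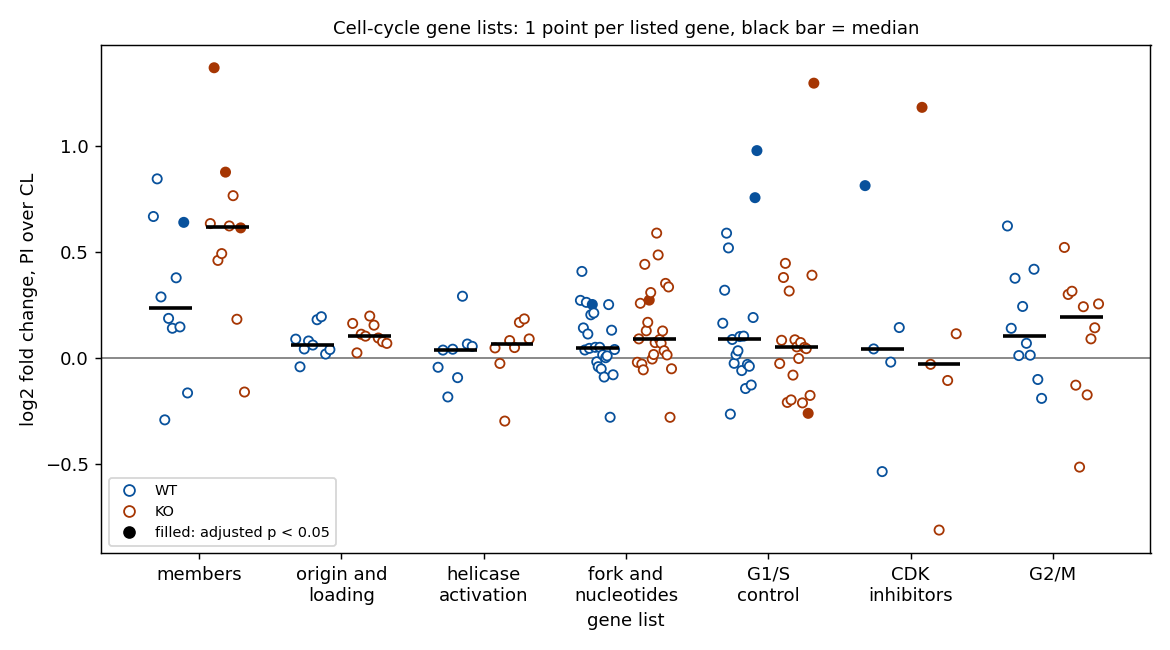
Log2 fold change of PI over CL (y axis) for the listed genes of the 10 members and 6 cell-cycle lists (x axis), with WT in blue, KO in brown, filled points where the adjusted p is under 0.05 and black bars at the list medians. The members' median is 0.24 in WT and 0.62 in KO, and the medians of the other lists lie between −0.03 and 0.19.

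The genes whose profile over 24 libraries was most like the mean of Mcm2 to Mcm7 were Eif1a, Ifih1 and Aldh18a1. Their root mean square differences from it were 0.108, 0.111 and 0.112 (log2). They were picked on the same 24 libraries, so their PI over CL values below follow largely from that choice. Eif1a, a translation initiation factor, was at 0.36 in WT and 0.57 in KO for PI over CL. Ifih1, a sensor of double-stranded RNA, was at 0.43 and 0.69, and Aldh18a1, an enzyme of proline synthesis, at 0.38 and 0.71.

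Markers of cell types moved between PI and CL as well, and their part in the results above was not tested. The summed level of 10 microglia markers was 186, 189 and 200 CPM (lowest, median, highest) in CL WT and 203, 211 and 229 in PI WT, and 197, 209 and 216 in CL KO and 217, 251 and 262 in PI KO. Neither pair of ranges overlapped. Csf1r, a receptor that microglia need to survive, had medians of 36.1 CPM in CL WT, 36.5 in PI WT, 36.7 in CL KO and 39.3 in PI KO. Within the list, 4 genes were higher and 2 lower in PI WT, and 4 were higher and 1 lower in PI KO. The summed level of 10 neuron markers went the other way, from 8650 to 9210 CPM in CL WT to 7460 to 8270 in PI WT, and from 8510 to 8910 in CL KO to 7310 to 8040 in PI KO.

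Summed microglia markers also stood higher in KO, at 194 to 212 CPM in CL KO against 182 to 195 in CL WT, and at 223 to 269 in PI KO against 206 to 233 in PI WT, ranges that overlapped. Of 10 endothelial markers 0 passed in WT, and 1 was lower in KO. In WT, 9 of the 10 had a log2 fold change above 0, with a median of 0.44 beside the members' 0.24, and at an unadjusted p under 0.05 there were 3 higher and 1 lower. In KO, 8 of the 10 were above 0, with a median of 0.14 beside the members' 0.62, and 2 were higher and 1 lower at that level. Their summed levels overlapped, with medians of 121 CPM in CL WT, 122 in PI WT, 122 in CL KO and 118 in PI KO, and Slco1a4, the most abundant, had a lower median in PI. Of 7 listed markers of oligodendrocyte precursors, 1 was lower in WT and 0 passed in KO. Of 12 markers of blood myeloid cells, 2 were listed in the tables of PI with CL, and S100a8, S100a9, Ly6g and Ccr2 were not among them. In PI KO with PI WT, 4 of the 12 were listed and 0 passed. All 4 had a log2 fold change above 0 (48.5% of all genes), with a median of 0.47. S100a9 was at medians of 2.93 CPM in PI KO and 1.53 in PI WT. Of the 10 astrocyte markers 2 were higher and 2 lower in WT, and 2 were higher and 1 lower in KO, with Gfap at 1.88 in WT and 2.19 in KO.

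The other lists held few calls. Of 8 oligodendrocyte markers, 1 was lower in WT and 0 passed in KO. Of 7 listed markers of pericytes and smooth muscle and 4 listed erythroid genes, 0 passed in either genotype. In the list of 10 neuron markers 3 were lower in WT, and 3 were lower and 1 higher in KO. Abundant markers of these lists had the following median levels in CL WT, PI WT, CL KO and then PI KO. Neuronal Snap25 was at 3080, 2470, 2980 and 2470 CPM, and Map2 at 2310, 2220, 2250 and 2230. Astrocytic Slc1a2 was at 6740, 5670, 6640 and 5820 CPM, and Slc1a3 at 453, 427, 463 and 439. Oligodendrocyte Mbp was at 905, 610, 800 and 664 CPM. All of these had lower medians in PI. Endothelial Slco1a4 was at 53.6, 35.7, 50.7 and 36.5 CPM, and Flt1 at 20.9, 28.6, 22.6 and 22.7. Of the precursor markers, Vcan was at 68.5, 65.0, 61.9 and 58.4 CPM, and Pdgfra at 54.4, 57.2, 49.1 and 53.3. Of the 2 blood myeloid genes listed for PI with CL, Fn1 was at 42.2, 41.4, 50.9 and 44.3 CPM. Csf3r, the neutrophil growth factor receptor, was at 1.58, 1.56, 2.32 and 1.86. Neither of these 2 myeloid genes had a higher median in PI. Their log2 fold changes of PI over CL were 0.11 in WT and −0.13 in KO for Fn1, and −0.04 and −0.34 for Csf3r. Pericyte Rgs5 was at 66.8, 61.3, 64.4 and 65.8 CPM, with Abcc9 at 12.0 and 14.5 in WT and Vtn at 12.5 and 12.3 in KO as the next most abundant. Erythroid Hbb-bs was at 17.7, 22.1, 18.7 and 28.3 CPM, and Hba-a2 at 3.91, 7.31, 5.24 and 8.04.

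Several members share exon sequence with a gene on the opposite strand, and the use of strand in counting is not known. Ccnd1 (chr7:144929931-144939925, minus strand, GRCm38) shares 1100 exonic bases with LTO1, whose own log2 fold change was 0.05 in WT and −0.09 in KO, neither called. Mcm7 (chr5:138164583-138172422) shares 321 bases with Ap4m1 and 64 with Cops6, and contains the microRNA genes Mir25, Mir93 and Mir106b. Ap4m1 was at 0.26 in WT and 0.23 in KO, and Cops6 at 0.06 and −0.06, beside 0.14 and 0.62 for Mcm7. Cdc45 (chr16:18780447-18811987) shares 209 bases with Ufd1, which was at 0.16 in WT and 0.09 in KO. In CL WT the median of Ufd1 was 5.75 log2 CPM, beside 0.06 for Cdc45. Ap4m1, Cops6 and Ufd1 were not called, and their part in the member counts was not tested. Ccnd2 (chr6:127125162-127152193) shares 372 and 368 bases with 2 antisense genes. Mcm3 (chr1:20802968-20820312), Mcm6 (chr1:128331590-128359664), Mcm2 (chr6:88883474-88898780), Mcm4 (chr16:15623897-15637400), Mcm5 (chr8:75109569-75128439) and Pcna (chr2:132249162-132253314) share none. Mcm5 is on the plus strand and the other members on the minus strand.

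Because ciRS-7 binds miR-7, the 3′ UTRs of the members were searched for its seed matches. The mature sequence is shown with its seed, bases 2 to 8, in capitals, and each site with the matched bases in capitals, read 5′ to 3′ on the transcript.
mmu-miR-7a-5p: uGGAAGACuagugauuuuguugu
Mcm6 site: acctggggctgaTCTTCCAgaggtcct
Pcna site: gcttttgttctcTCTTCCAtcgtggag
Ccnd2 site: tggcctccgaaGTCTTCCtaggactga
These were the matches (GTCTTCC or TCTTCCA) in 3 of 10 members, where 27.1% of 12630 measured genes had one, and none was in the Ccnd1 3′ UTR. KO over WT in the 3 genes was −0.40 in CL and 0.29 in PI for Mcm6, −0.06 and −0.02 for Pcna, and 0.11 and 0.12 for Ccnd2, none of which passed the test.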

How the data were processed

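Ribosome-depleted total RNA of 24 cortex libraries was grouped by sample title, 6 libraries per group. The deposited values are log2 CPM, in 4 tables of 12 columns, 1 per pair of groups, per the file headers. The build is mm10 per the submitters' processing notes. The aligner, the counting method and its use of strand are not given in the sources used here. A library that appears in 2 tables had values shifted by a median of 0.0256 to 0.0364 (log2), so scaling was done per table. Each comparison of 2 groups stayed within a table, and the difference between genotypes was taken between the PI over CL changes of 2 tables.

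In every gene the 2 lowest of a group's 6 log2 values as deposited were equal, as were the 2 highest: each group had been drawn in to its quartiles, a step no label records. The 4 inner values were solved from this. Low recovered values were whole reads, within 0.03 read, for 79.7% to 88.9% of tied values, against 10.9% to 13.7% as deposited and 11.6% by chance. The main test compared trimmed means of the inner values, with the Winsorized sum of squares moderated by limma 3.58.1 in R 4.3.3 with a trend (two-sided, Benjamini-Hochberg over all genes of a table, called under an adjusted p of 0.05). It was also run on simulated normal values of unpaired libraries, and the outcome is not given here. That simulation does not cover low counts or libraries paired by animal. No count test was run, because the lowest and highest values are not reads.

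The titles give CL and PI libraries of 1 animal the same number, so the libraries of those comparisons are paired by animal. The main test did not use this pairing, and its SEs and adjusted p values are unpaired. Deviations from group means correlated between libraries of the same animal at −0.006 to 0.209 in WT and −0.012 to 0.19 in KO. The replicate block, an alternative, kept the difference of trimmed means and took its variance from same-animal differences of Winsorized values. At each end of a group the outermost library carries its neighbour's value, so the pairs are only partly the animals' own values.

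All 10 members are named in every comparison. Of the 6 pathway lists, genes called in either comparison of PI with CL are named. Mki67, Cdk4, Gfap and absent genes of those lists were named after their values were seen. Marker lists are given by counts, summed CPM and their 2 most abundant genes, some of which are not reported here. The members and lists were chosen with earlier results of these data known. Promoters are from RefSeq on GRCm38.p6 and gene positions from GENCODE M21 on GRCm38.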

Additional observations from a re-analysis of the deposited data

How the results depend on the processing

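The test set the number of calls more than any other choice. With limma on the deposited values, whose spread the drawing-in understates, more genes were called in every comparison. PI WT with CL WT had 6459 genes called (44.6%, 6 members) and PI KO with CL KO 6666 (46.5%, 9 members). PI KO with PI WT had 2388 (16.5%, 2 members) and CL KO with CL WT 2311 (16.1%, 3 members). The difference between genotypes had 1940 (13.7%, 2 members). The trimmed-mean test called 1537, 1440, 3, 4 and 0 genes, with 1, 3, 0, 0 and 0 members. Without a trend in the prior variance it called 1015 genes in WT and 739 in KO, and Mcm2 passed in KO (adjusted p = 0.0277). Centring on the median gene called 2 members in WT, where 12.5% of genes were called. The higher side of the calls went from 49.1% to 37.1% in WT and from 50.8% to 38.6% in KO. With a mean of at least 1 log2 CPM required, Mcm3 and Cdc45 left the PI with CL tables. There 1 of 8 members (11.3% of genes) passed in WT and 2 of 8 (10.7%) in KO.

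With the replicate block, 2275 genes (15.7%) were called in WT (1 member) and 2154 (15%) in KO (5 members). Between genotypes animals share only a number, and that block gave 6 genes in PI and 85 in CL, with 0 members in each. For the difference between genotypes the block paired the PI and CL libraries of each animal, and 1 gene and 0 members were called. Leaving out 1 animal gave 770 to 1300 genes and 1 to 2 members in WT, and 539 to 1458 genes and 2 to 4 members in KO. Leaving out 1 library gave 3 to 4 genes in PI and 3 to 7 in CL between genotypes, with 0 members. Over single members, 586 values kept their sign and side of the threshold, 24 came to pass, 2 ceased to pass and 5 changed sign. Most of the 24 came from limma on the deposited values, whose spread the drawing-in understates. The rest were values of Ccnd2 and Mcm2 in WT, and of Mcm2, Mcm4 and Mcm7 in KO, for PI with CL. The sign changes were Mcm5 in WT without replicate 4 (range over animals −0.52 to 0.022), Pcna in PI KO with PI WT without PI KO replicate 1 or 3 (range over libraries −0.051 to 0.0093), and Pcna in CL KO with CL WT without CL WT replicate 2 or 5 (−0.11 to 0.0019). The cause was not tested for any of these. Depth limits Mcm3 and Cdc45 most, at medians of 7.90 to 19.5 reads per library.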
